A study of Mus musculus with 24 samples.

Results

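The knock-in line of a mouse study of Jak2 was followed from long-term haematopoietic stem cells (LTHSC), the self-renewing cells at the top of blood formation, to megakaryocyte progenitors (MKP), the committed precursors of the platelet-forming cells. The members were the 3 LTHSC libraries numbered 1 to 3 and the 3 MKP libraries numbered 4 to 6 that carry the knock-in label, 6 of the 24 RNA libraries in the study. Mice were of strain C57BL/6N, and their genotype was labelled Scl.Cre mouse Jak2 knock-in (KI). The labels do not say whether the inserted Jak2 is the normal or a mutant form. Per the labels' protocols, tamoxifen was given for 5 days, cells were sorted from bone marrow 12 weeks later, and libraries were made with Smart-seq2, a full-length method without molecular identifiers. The other lines, used below only to compare the same step, were labelled Scl.Cre Exon12 (E12) and Vav1.Cre V617F (VF), each with 3 libraries per population in these fits, and all 3 lines carry a Cre recombinase driven from blood-cell regulatory sequence. The Cre driver differs between the VF line and the others, so that driver and allele cannot be told apart there. The labels give no sort gate and do not say that numbered replicates came from separate animals, so p-values here reflect the spread among these libraries only, which may be technical.

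Megakaryocytes carry the receptors and granules that later make platelets adhere, aggregate and release clotting factors. They descend from stem cells that depend on thrombopoietin, a hormone that signals through the kinase JAK2 to STAT proteins. The transcription factor GATA1 with its partner FOG1, encoded by Zfpm1, switches on megakaryocyte and erythroid genes, whereas factors such as HLF and MECOM maintain the stem cell state.

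Before any gene is described, the libraries themselves need describing, because the 3 MKP libraries were not alike. Total counts were 12800097 to 16717145 in LTHSC and 10357877 to 29691635 in MKP, with 13237 to 15015 genes detected. Genes shorter than 1000 bases took 5.79% to 7.27% of counts in LTHSC and 7.1% in MKP 4, against 38.1% in MKP 5 and 37.7% in MKP 6. The Spearman correlation of log2 CPM across genes was 0.964 to 0.972 between LTHSC libraries and 0.939 between MKP 5 and MKP 6, but 0.822 and 0.834 between MKP 4 and these. Between MKP 4 and the LTHSC libraries it was 0.896 to 0.908. MKP 4 was thus closer by this measure to the LTHSC libraries than to MKP 5 or MKP 6. The scaling factors used below to remove composition differences (TMM) were 1.29 to 1.34 for LTHSC and MKP 4, 0.602 for MKP 5 and 0.54 for MKP 6. Markers of sex also separated the MKP libraries: the X-inactivation RNA Xist stood at 2720 CPM (counts scaled to a library's total, here before TMM scaling) in MKP 4, at 28.4 in MKP 5 and at 6.07 in MKP 6, and at 1.65 to 2.21 in LTHSC. Summed Y-linked genes stood at 0.168 CPM in MKP 4, 37.9 in MKP 5, 33.4 in MKP 6 and 185 to 254 in LTHSC. MKP 4 therefore carried Xist without Y-linked RNA, the reverse of the LTHSC libraries. No pair of libraries held the same counts beyond sampling noise.

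Split by gene length, the median gene of MKP 4 lay no farther than 0.0833 log2 units from LTHSC in any of 5 length bins, while MKP 5 and MKP 6 departed in opposite directions in short and longer genes. In the shortest bin, 43 to 1534 bases, the median gene was 1.47 log2 units above the LTHSC mean in MKP 5 and 1.93 in MKP 6. In the middle bin, 2371 to 3335 bases, the medians were -0.646, -0.586 and -0.00189. Of the 2620 genes in the shortest bin, 719 (27.4%) were called higher in MKP by the test described next, against 3.63% to 5.54% in the other bins. Of the same 2620, 182 (6.95%) were higher in all 3 MKP libraries, against 2.14% to 2.48% elsewhere. The part of this length pattern in the results was not tested beyond the fit with length offsets, whose values are given for some of the lists below.

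**Figure D1:**
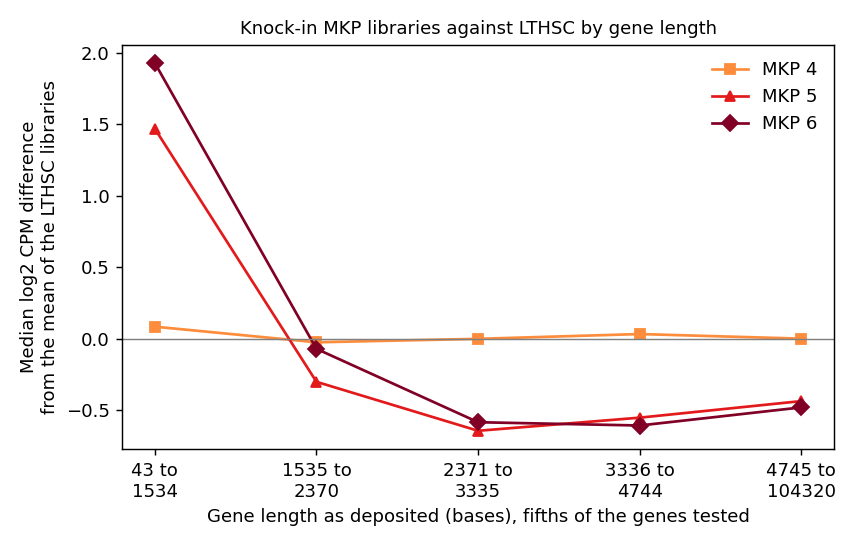
Median difference in log2 CPM between each MKP library and the mean of the 3 LTHSC libraries (y axis), for the genes tested split into 5 bins by deposited gene length in bases (x axis). MKP 4 lies close to 0 throughout, and MKP 5 and MKP 6 rise to 1.47 and 1.93 in the shortest bin and lie at or below 0 in the others.

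The main comparison asked which genes differ between LTHSC and MKP of the knock-in line, tested with edgeR's quasi-likelihood test on the counts of these 6 libraries. At a Benjamini-Hochberg adjusted p under 0.05, 1904 of 13086 genes (14.5%) were called. Of these, 1185 were higher in MKP (9.06% of genes tested) and 719 were lower (5.49%). A gene was counted as changed in all 3 MKP libraries when it was called, each MKP library lay at least 1 log2 CPM unit from the LTHSC mean in the called direction, and each lay beyond every LTHSC library. By that rule 421 genes were higher (3.22%) and 657 lower (5.02%). The rule itself requires that the populations do not overlap, and 5200 of all genes tested (39.7%) did not overlap, so a lack of overlap is given below as a description. The direction of a call mattered for how MKP 4 behaved: among the 1185 higher genes MKP 4 was at least 1 unit up for 441, between 0 and 1 unit up for 696, and at or below the LTHSC mean for 48. Among the 719 lower genes MKP 4 was at least 1 unit down for 673 and between 0 and 1 unit down for 46. The 764 higher genes that were not shared had a median length of 1020 bases and medians of 0.516 in MKP 4, 3.29 in MKP 5 and 3.57 in MKP 6, against 2016 bases and 1.73, 3.06 and 3.3 for the 421 shared ones. For the 657 shared lower genes the medians were -2.51, -3.23 and -3.15, at a median length of 3034 bases. The median log2 fold change of all genes tested was -0.0381 with TMM scaling and -0.706 without it, where 66 genes were called higher and 226 lower, and directions below are relative to the scaled centre.

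The number of calls rested on each LTHSC library. Without LTHSC 1, 2 or 3 in turn, 4, 4 and 0 genes were called higher and 16, 14 and 14 lower. Without MKP 5 or MKP 6 the counts were 48 and 41 higher and 98 and 90 lower, and without MKP 4 they were 3100 and 3286. Calls within the gene lists below rested on the LTHSC libraries as well. With any 1 of these left out, 0 listed platelet receptor, DNA replication and mitosis genes were called. With MKP 4 as the lone MKP library, assumed to vary as the LTHSC libraries do, 573 genes were called higher and 838 lower. Of the 1078 genes changed in all 3 libraries, which MKP 4 itself helped to choose, 725 were called in that fit.

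**Figure D2:**
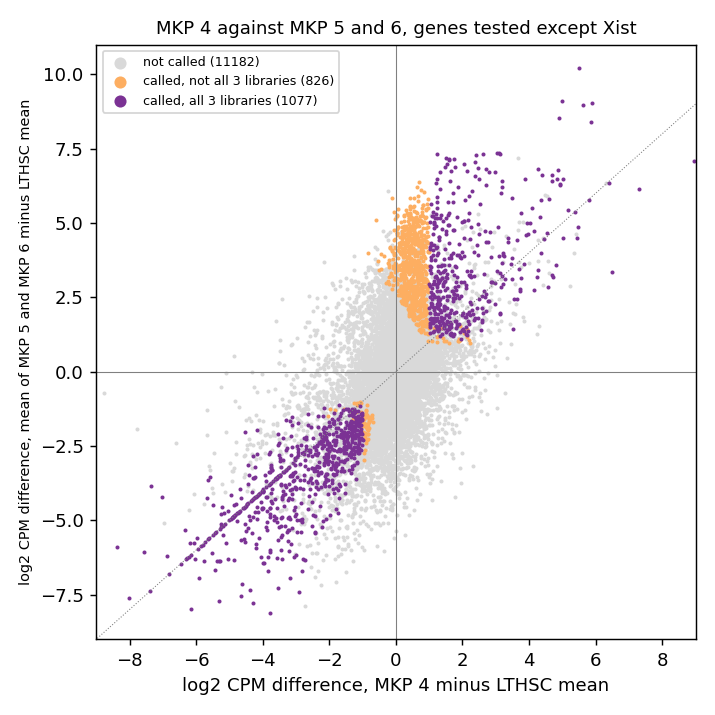
Each point is a gene, placed by its log2 CPM difference from the LTHSC mean in MKP 4 (x axis) and the average of MKP 5 and MKP 6 (y axis). The dotted line marks equal differences, and Xist is left out. Genes changed in all 3 libraries (purple) lie away from both axes, and the remaining calls (orange) cluster above the x axis near an MKP 4 difference of 0 to 1.

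Several receptors by which platelets bind the vessel wall and each other rose. Of 31 listed receptors and integrins, 22 passed the filter on low counts, 8 rose and 1 fell, all of them in all 3 MKP libraries. The other 13 tested did not pass. The list's median log2 fold change was 1.44, and its median difference from LTHSC was 1.58 in MKP 4, 0.41 in MKP 5 and 1.6 in MKP 6. Without MKP 4, 11 of 23 were called higher and 5 lower, at a median of 0.753. With length offsets 10 of 22 were called higher and 2 lower, at a median of 1.36. In the fit without MKP 5 and 6, 11 of 27 tested were called higher and 2 lower. Because these are bulk samples, more cells of a type and more RNA per cell cannot be told apart here or below. The promoters of 5 of the higher receptor and granule genes are shown because these genes moved together in all 3 MKP libraries, and they are those with the smallest adjusted p among the 12 of 15 such genes that have an entry. Each line gives the 250 bases before the transcription start in the direction of transcription, from RefSeq on GRCm38.p6, with a match to the ETS-type motif CAGGAAG in capitals. The locations are chr16:18622404-18622653 on the minus strand for Gp1bb, chr17:48359666-48359915 on the plus strand for Treml1, and chr1:79858666-79858915 (minus) for Serpine2. F13a1 lies at chr13:37050245-37050494 (minus, the first of 2 entries) and Itga2b at chr11:102469884-102470133 (minus).
Gp1bb: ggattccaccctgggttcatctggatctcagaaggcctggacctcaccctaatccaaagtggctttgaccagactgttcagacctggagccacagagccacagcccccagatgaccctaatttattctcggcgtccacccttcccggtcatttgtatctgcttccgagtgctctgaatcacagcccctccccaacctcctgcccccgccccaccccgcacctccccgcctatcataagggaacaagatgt
Treml1: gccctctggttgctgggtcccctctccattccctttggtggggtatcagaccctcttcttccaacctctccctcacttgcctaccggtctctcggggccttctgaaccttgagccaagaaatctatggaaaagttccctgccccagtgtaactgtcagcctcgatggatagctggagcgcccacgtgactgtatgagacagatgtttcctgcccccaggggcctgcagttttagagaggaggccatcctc
Serpine2: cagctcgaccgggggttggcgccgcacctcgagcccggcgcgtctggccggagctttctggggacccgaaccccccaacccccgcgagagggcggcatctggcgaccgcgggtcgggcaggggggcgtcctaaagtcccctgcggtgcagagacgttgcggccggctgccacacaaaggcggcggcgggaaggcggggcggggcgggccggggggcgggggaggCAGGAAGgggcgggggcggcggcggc
F13a1: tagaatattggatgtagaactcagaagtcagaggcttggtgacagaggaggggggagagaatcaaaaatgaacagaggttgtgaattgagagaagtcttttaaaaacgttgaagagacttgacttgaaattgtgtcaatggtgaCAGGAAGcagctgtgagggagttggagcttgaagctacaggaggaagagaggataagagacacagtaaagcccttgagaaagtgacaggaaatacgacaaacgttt
Itga2b: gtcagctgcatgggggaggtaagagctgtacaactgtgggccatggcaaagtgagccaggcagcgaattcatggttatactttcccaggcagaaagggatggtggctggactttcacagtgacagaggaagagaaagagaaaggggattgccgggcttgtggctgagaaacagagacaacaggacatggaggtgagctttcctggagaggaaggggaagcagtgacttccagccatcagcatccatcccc

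The motif CAGGAAG begins 26 bases before the start of Serpine2 and 106 bases before that of F13a1, and is not in the other windows on either strand. The GATA-type motifs AGATAA and TGATAA, searched on both strands, are in none of the 5 windows. Other strings that contain GATA were not searched, and some of the printed windows hold such strings. Over all 32851 promoter entries, AGATAA was present in 9.99%, TGATAA in 7.94% and CAGGAAG in 10.8%. Among the first entries of 343 genes higher in all 3 MKP libraries the shares were 7.87%, 4.08% and 11.1%, against 6.1%, 3.75% and 10.2% for the 10383 genes tested that have an entry. For 514 genes lower in all 3 the shares were 8.17%, 5.06% and 12.5%. A match is a run of letters and was not tested as a binding site.

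In the sentences that follow, 3 values for LTHSC are libraries 1, 2 and 3 and 3 values for MKP are libraries 4, 5 and 6, in CPM after TMM scaling. Itga2b, the alpha chain of the fibrinogen receptor (chromosome 11, 102453297 to 102469883), was at 59.3, 59.1 and 85.0 in LTHSC and at 758, 571 and 598 in MKP (log2 fold change 3.24, SE 0.50, adjusted p = 0.0151). All MKP libraries lay far above all LTHSC libraries, with the highest level in MKP 4. Its partner chain Itgb3 stood at 42.3, 53.4 and 53.1 in LTHSC and 177, 115 and 194 in MKP (1.71, SE 0.34, adjusted p = 0.0233). The von Willebrand factor receptor is a complex of several chains, and 3 of them rose. Gp1bb was at 6.98, 6.01 and 6.25 in LTHSC and at 167, 418 and 968 in MKP (6.33, SE 0.77, adjusted p = 0.00804), lowest in MKP 4 among the MKP libraries but still well above LTHSC. Gp9 stood at 17.6, 17.2 and 17.4 in LTHSC and 61.3, 146 and 280 in MKP (3.22, SE 0.54, adjusted p = 0.0186). Gp5 stood at 20.8, 11.3 and 27.5 in LTHSC and 251, 97.9 and 167 in MKP (3.11, SE 0.49, adjusted p = 0.0164). Both therefore separated the populations without overlap, Gp9 with MKP 4 lowest and Gp5 with MKP 4 highest. The fourth chain, Gp1ba, was at 17.4, 21.1 and 10.04 in LTHSC and 78.0, 17.3 and 36.5 in MKP and did not pass the test (adjusted p = 0.11), since MKP 5 lay within the LTHSC range.

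Other platelet receptor genes rose as well. Treml1, a receptor stored in platelet granules, was at 4.55, 2.51 and 2.02 in LTHSC and 44.2, 42.0 and 123 in MKP (4.53, SE 0.60, adjusted p = 0.01). F2rl2, a protease-activated receptor, stood at 10.1, 11.0 and 6.25 in LTHSC and at 211, 36.1 and 113 in MKP (3.72, adjusted p = 0.0186). P2ry1, an ADP receptor, stood at 5.32, 2.47 and 5.42 in LTHSC and at 75.7, 20.4 and 40.3 in MKP (3.37, adjusted p = 0.0195). In F2rl2 and P2ry1 the order of the MKP libraries was the same, MKP 4 highest and MKP 5 lowest, and neither overlapped LTHSC. Esam, a junctional adhesion molecule that also marks stem cells, fell from 156, 170 and 226 in LTHSC to 84.5, 41.6 and 64.3 in MKP (-1.53, adjusted p = 0.0348).

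Cargo of platelet granules moved in both directions. Of 22 listed genes 19 were tested, 7 rose (6 in all 3 MKP libraries) and 3 fell (all 3), with a median of 1.44. With length offsets 9 rose and 4 fell, at a median of 1.52. Pf4, the chemokine of alpha granules (chromosome 5, 90772435 to 90773383), was at 24.7, 13.3 and 12.9 in LTHSC and 797, 5113 and 13087 in MKP (8.55, SE 1.49, adjusted p = 0.0195). Of the platelet genes compared per kilobase it stood highest in each MKP library, at 1356, 8695 and 22257 CPM per kilobase, and MKP 4 lay far below the other two. Vwf, the adhesive protein that bridges platelets and collagen, was at 28.3, 33.8 and 29.6 in LTHSC and 184, 161 and 193 in MKP (2.55, SE 0.31, adjusted p = 0.00791), close to equal in the 3 MKP libraries. F13a1, the clot-crosslinking transglutaminase chain, stood at 0.41, 0.45 and 0.30 in LTHSC and 10.4, 6.74 and 16.8 in MKP (4.85, SE 0.74, adjusted p = 0.0151). Serpine2, an inhibitor of thrombin, stood at 2.48, 2.38 and 3.64 in LTHSC and 76.5, 22.3 and 30.4 in MKP (3.93, SE 0.58, adjusted p = 0.0139). Neither gene overlapped between the populations. Tgfb1 (2.18) and the chaperone Clu (1.48) also rose in all 3 MKP libraries, and Timp3, an inhibitor of matrix proteases, rose but not in all 3 (1.61, with MKP 5 at 50.5 CPM and LTHSC at 30.6 to 34.2). Among the genes that fell, Mmrn1, encoding the factor V carrier multimerin, was at 346, 437 and 401 in LTHSC and 136, 22.5 and 36.2 in MKP (-2.60, SE 0.68, adjusted p = 0.0401). Vegfc (log2 fold change -4.08) and the growth factor gene Gas6 (-4.18) fell too.

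Genes that build the granules were mostly not called. Of 27 tested, 3 rose and 1 fell, with a median of -0.12, where 9.06% of all genes tested were called higher and 5.49% lower. With length offsets 3 rose and 3 fell, at a median of 0.213. Mfsd2b, the exporter of sphingosine-1-phosphate, was at 16.1, 12.3 and 6.30 in LTHSC and 353, 272 and 224 in MKP (4.61, SE 0.48, adjusted p = 0.00513). Slc35d3, needed for dense granules, stood at 3.55, 8.93 and 6.35 in LTHSC and 81.0, 32.6 and 86.0 in MKP (3.40, adjusted p = 0.0157). Both were higher in every MKP library. Rab27b, a GTPase of granule secretion, rose but not in all 3 (1.39), and Slc18a2, a vesicular monoamine transporter, fell from 437, 449 and 479 in LTHSC to 199, 92.3 and 120 in MKP (-1.73, adjusted p = 0.043).

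Of 37 cytoskeletal and platelet signalling genes tested, 6 rose, 4 of them in all 3 MKP libraries, and 1 fell, with a median of 0.94. With length offsets 13 rose and 2 fell, and with MKP 4 as the lone MKP library 11 rose and 1 fell. Tuba8, an alpha-tubulin, was at 14.4, 12.6 and 12.6 in LTHSC and 306, 238 and 475 in MKP (4.69, SE 0.45, adjusted p = 0.00351), with a narrow spread in LTHSC only. Cavin2 stood at 11.2, 25.9 and 21.2 in LTHSC and 202, 223 and 230 in MKP (3.49, SE 0.41, adjusted p = 0.00751). Plek, the platelet kinase C substrate pleckstrin, rose by 2.93 and the integrin adaptor Fyb by 2.03. Myh9, the platelet myosin heavy chain, and Rasgrp2, an activator of platelet integrins, rose by 1.72 and 2.73 without passing the rule for all 3 libraries: Rasgrp2 was at 97.7 in MKP 4 against 500 and 565 in MKP 5 and 6, and at 51.0 to 70.2 in LTHSC. Gsn, the actin-severing gelsolin, fell (-1.48).

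**Figure D3:**
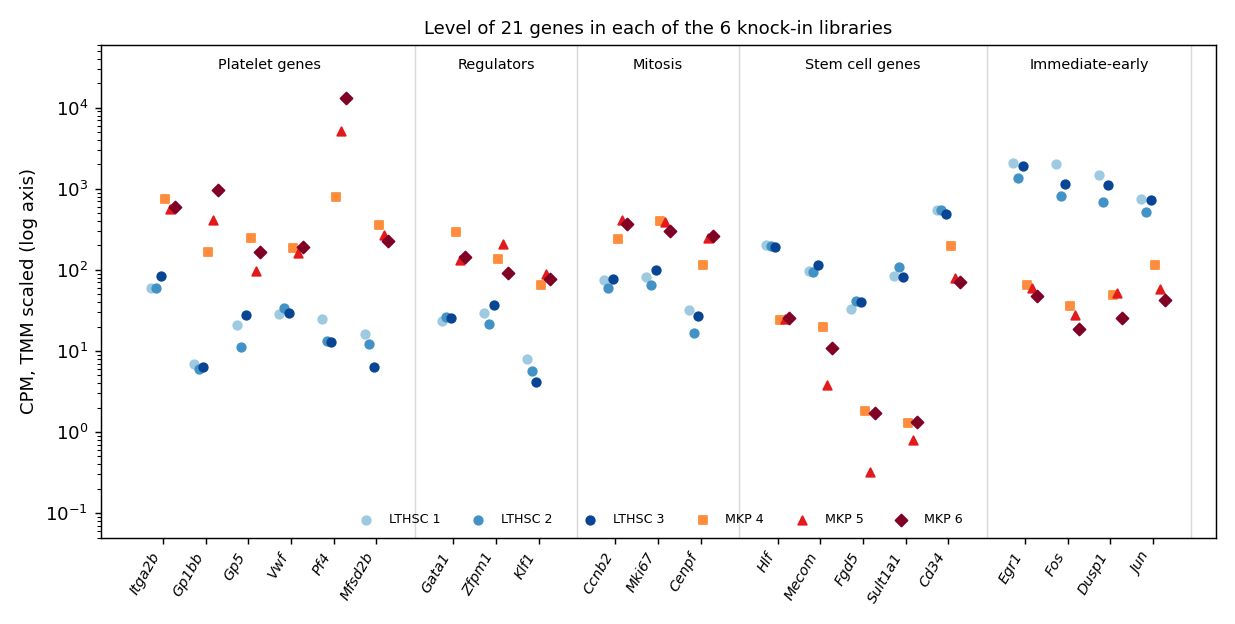
CPM after TMM scaling on a log axis (y) for 21 genes grouped by role (x), with 1 point for each of the 6 libraries. The genes shown all meet the rule for all 3 libraries, so their MKP points lie by choice on 1 side of the LTHSC points, above them for platelet genes, regulators and mitosis genes and below them for stem cell and immediate-early genes, while Pf4 and Gp1bb show a wide spread within MKP.

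Among 19 megakaryocyte transcription factor genes tested, 2 rose and none fell, where 9.06% of all genes tested were called higher and 5.49% lower. The list's median log2 fold change was 0.78, and -0.0583 without TMM scaling. The median was 0.488 without MKP 5 and 6. With length offsets 7 rose and 0 fell, and without MKP 4, 8 rose and 4 fell, at a median of 0.368. Gata1 (chromosome X, 7959260 to 7976663) was at 23.7, 26.5 and 25.3 in LTHSC and 295, 133 and 144 in MKP (2.92, SE 0.41, adjusted p = 0.0126). MKP 4, the library with high Xist, had the highest Gata1, and all 3 lay above LTHSC. Zfpm1 stood at 29.0, 21.2 and 36.5 in LTHSC and 135, 206 and 91.2 in MKP (2.32, SE 0.41, adjusted p = 0.0195). The other 17 did not pass, though 8 of the 19 were higher and 0 lower at an unadjusted p under 0.05 by edgeR. Mef2c was at 188, 159 and 112 in LTHSC and 447.5, 385 and 352.5 in MKP (1.37, adjusted p = 0.0601). It lay above LTHSC in each MKP library. Nfe2 had similar levels in both populations, at 633, 628 and 733 in LTHSC and 518, 694 and 780 in MKP. Fli1 was at 154, 182 and 197 in LTHSC and 331, 96.1 and 112 in MKP, with MKP 4 above and the others below every LTHSC library.

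Erythroid genes were of interest because megakaryocytic and red cells share a precursor. Of 26 tested, 8 rose, 7 in all 3 MKP libraries and Gata1 among them, and 1 fell, with a median of 1.13. Without MKP 5 and 6, 5 rose and 3 fell, and with length offsets 8 rose and 4 fell. Klf1, the main erythroid factor, was at 7.99, 5.66 and 4.14 in LTHSC and 64.7, 89.2 and 76.6 in MKP (3.70, SE 0.39, adjusted p = 0.00513). Icam4, a red-cell adhesion molecule, stood at 13.1, 10.4 and 10.6 in LTHSC and 64.9, 199 and 408 in MKP (4.30, SE 0.65, adjusted p = 0.0151). The water channel Aqp1 stood at 19.5, 16.6 and 14.3 in LTHSC and 191, 47.0 and 43.5 in MKP (2.49, adjusted p = 0.0344). MKP 4 was lowest among MKP for the first and second of these genes and highest for the third, and all 3 lay above LTHSC in each MKP library. Carbonic anhydrase Car1 rose by 5.01 (adjusted p = 0.0322). Tspo2 and Cldn13 had no count in LTHSC and were at least 105-fold and 70.5-fold higher in MKP against a floor of 3 counts over the LTHSC group. Blvrb rose by 3.25 but was at 28.7 in MKP 4 against 17.98 to 24.1 in LTHSC. The globin gene Hba-a1, whose reads can be shared with its near-identical copy, stayed at 4.74 to 26.8 CPM in MKP and 5.48 to 10.6 in LTHSC and did not pass. Epb42 fell, with 152 counts in LTHSC and 1 in MKP (a ratio of 147, 95% interval 25.9 to 5826 for counting error).

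The MKP libraries held more transcript of the cell cycle. Of 30 DNA replication genes 13 rose, 12 in all 3 MKP libraries, and of 31 mitosis genes 15 rose, 14 in all 3, while none fell in either list. Their medians were 1.21 and 1.45. The counts were 23 and 22 without MKP 5 and 6, and 18 and 26 with length offsets. Without TMM scaling 0 replication and 3 mitosis genes were called, at medians of 0.636 and 0.885. The cyclin Ccnb2 was at 75.4, 59.2 and 77.8 in LTHSC and 241, 415 and 371 in MKP (2.27, SE 0.41, adjusted p = 0.0200). The proliferation marker Mki67 was at 82.1, 65.1 and 101 in LTHSC and 396, 385 and 301 in MKP (2.13, SE 0.40, adjusted p = 0.0215). Both lay above LTHSC in each MKP library. The centromere protein gene Cenpf stood at 31.6, 16.7 and 26.9 in LTHSC and 115, 247 and 262 in MKP (3.05, SE 0.45, adjusted p = 0.0139). The kinase Cdk1 rose by 2.38, the ubiquitin-conjugating enzyme Ube2c by 3.69 and survivin, encoded by Birc5, by 3.63. In replication, thymidylate synthase Tyms rose by 2.44, DNA ligase Lig1 by 3.06 and the dUTPase gene Dut by 3.20. Dut was at 148 in MKP 4 against 472 and 884 in MKP 5 and 6, and at 47.2 to 62.4 in LTHSC, so the size of its rise depended on the library and its direction did not.

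Stem cell transcription factors fell more often than they rose. Of 25 tested, 8 fell and 1 rose, each in all 3 MKP libraries, with a median of -0.75. With length offsets 7 fell and 2 rose, at a median of -0.387. In the fit without MKP 5 and 6, 9 fell and 1 rose. Hlf (chromosome 11, 90336535 to 90390917) was at 200, 199 and 189 in LTHSC and 23.9, 24.9 and 25.5 in MKP (-2.99, SE 0.31, adjusted p = 0.00513). The 3 MKP libraries were nearly equal for Hlf despite their other differences. Mecom (chromosome 3, 29951296 to 30509759) was at 97.2, 94.6 and 115 in LTHSC and 19.9, 3.85 and 10.9 in MKP (-3.13, SE 0.55, adjusted p = 0.0195). Nkx2-3 stood at 55.8, 49.4 and 67.3 in LTHSC and 11.0, 9.79 and 4.01 in MKP (-2.80, SE 0.45, adjusted p = 0.0176). In none of these did any MKP library come near the LTHSC range. The homeobox genes Hoxa9 (-2.05) and Hoxa10 (-1.68) fell, as did Prdm16 (-1.37) and Ikzf2 (-1.68). Egr1 fell most (-4.96) and is counted again among the immediate-early genes below. The homeobox gene Meis1 was at 431 to 522 in LTHSC and at 373, 277 and 179 in MKP and did not pass.

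Surface and sorting genes of stem cells also fell more often than they rose. Of 21 tested, 9 fell and 2 rose, all in all 3 MKP libraries, with a median of -1.45. Itga2b, counted above as a platelet receptor, is among those that rose. The counts were 12 and 2 without MKP 5 and 6. Procr, the protein C receptor used to purify stem cells, was at 61.6, 60.4 and 60.1 in LTHSC and 0.0781, 3.85 and 0.157 in MKP (-5.82, SE 1.24, adjusted p = 0.0293). Fgd5, whose expression is used to mark stem cells, was at 33.1, 40.9 and 40.4 in LTHSC and 1.80, 0.321 and 1.73 in MKP (-4.79, SE 0.60, adjusted p = 0.00899). Sult1a1, a sulfotransferase gene, was at 84.2, 108 and 81.4 in LTHSC and 1.28, 0.802 and 1.34 in MKP (-6.27, SE 0.41, adjusted p = 0.00123). In every MKP library these 3 genes lay far below all LTHSC libraries. Of the antigens used to separate stem and progenitor cells, Ly6a and Cd34 fell, Cd48 rose, and Kit and Slamf1 did not pass. Ly6a, the Sca-1 antigen, was at 148, 158 and 131 in LTHSC and 6.20, 31.3 and 39.6 in MKP (-2.51, SE 0.60, adjusted p = 0.0346). Cd34 stood at 549, 549 and 486 in LTHSC and 197, 79.3 and 70.7 in MKP (-2.19, SE 0.55, adjusted p = 0.0364). Cd48, an antigen absent from long-term stem cells in common gates, rose from 4.79, 2.24 and 0.443 in LTHSC to 24.8, 73.7 and 76.1 in MKP (4.55, SE 0.84, adjusted p = 0.0206). For Ly6a, Cd34 and Cd48 alike, MKP 4 lay apart from MKP 5 and 6. The cytokine receptor Flt3 (-3.07) and the endothelial-type genes Emcn (-4.01) and Robo4 (-2.92) fell. The stem cell factor receptor Kit was at 573, 644 and 574 in LTHSC and 402, 99.3 and 104 in MKP and did not pass (-1.56, SE 0.66, adjusted p = 0.133), and Slamf1 was at 26.3 to 39.2 in LTHSC and 56.7, 27.3 and 18.3 in MKP.

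Of 14 quiescence and imprinted genes tested, 3 fell in all 3 MKP libraries and 1 rose outside that rule. Cdkn1c, an inhibitor of cyclin-dependent kinases, was at 64.2, 59.0 and 72.4 in LTHSC and 5.73, 4.17 and 15.2 in MKP (-2.96, SE 0.52, adjusted p = 0.0195). The imprinted gene Ndn fell (-2.67). The imprinted RNA Meg3 had 294 counts in LTHSC and none in MKP, at least 94.5-fold lower against a floor of 3 counts over the MKP group. The list's median was -0.985, or -0.99 with Meg3 at that bound. The stress gene Nupr1 was at 34.1 to 49.0 in LTHSC and 43.8 in MKP 4 but at 926 and 1564 in MKP 5 and 6 (4.27, adjusted p = 0.0384), so its rise was not seen in MKP 4.

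Immediate-early genes, transcribed within minutes of a stimulus, gave the list with the largest share of falling members. Of 29 tested, 22 fell, all of them in all 3 MKP libraries, and none rose. The median was -3.22, against -0.0381 over all genes tested, and the summed level went from 6078 to 10468 CPM in LTHSC to 913, 1059 and 1210 in MKP. The count was 21 with length offsets and 16 without TMM scaling. It was 1, 2 and 1 without LTHSC 1, 2 or 3 in turn, at medians of -3.06, -3.37 and -2.55. Without MKP 5 or MKP 6 it was 3 and 5. With MKP 4 as the lone MKP library the median was -2.98. Egr1 was at 2094, 1359 and 1915 in LTHSC and 64.2, 59.7 and 48.2 in MKP (-4.96, SE 0.71, adjusted p = 0.0128). Fos (chromosome 12, 85473890 to 85477274) was at 1998, 822 and 1150 in LTHSC and 35.7, 27.8 and 18.6 in MKP (-5.60, SE 0.75, adjusted p = 0.01). The MAP kinase phosphatase gene Dusp1 was at 1481, 678 and 1116 in LTHSC and 48.6, 51.2 and 25.3 in MKP (-4.71, SE 0.69, adjusted p = 0.0129). In all 3 genes the lowest LTHSC library, LTHSC 2, was far above every MKP library. Jun (-3.22), the Fos family member Fosb (-3.85) and the RNA-decay factor Zfp36 (-3.86) fell as well. Ppp1r15a, the stress-induced phosphatase subunit GADD34, was at 740, 654 and 860 in LTHSC and 70.3, 44.6 and 32.9 in MKP (-3.93, SE 0.57, adjusted p = 0.0128). Egr2 and Cyr61 had no count in MKP and were at least 74.2-fold and 53.4-fold lower against the same floor.

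**Figure D4:**
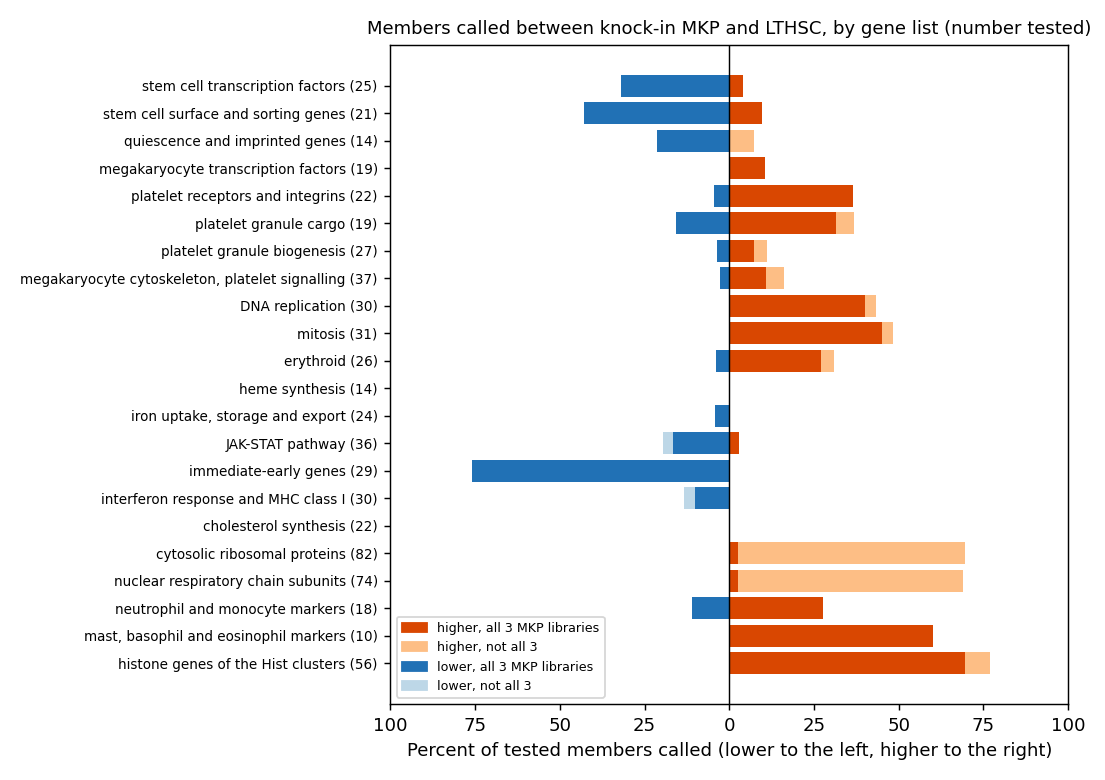
Percent of the tested members of each gene list that were called lower (left, blue) or higher (right, orange) in MKP, with darker bars for members changed in all 3 MKP libraries and the number tested in parentheses. Immediate-early genes extend furthest to the left, and the ribosomal, respiratory and histone bars furthest to the right, the first 2 of these with almost no dark part.

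The JAK-STAT pathway was examined because the line carries a Jak2 allele. Jak2 itself (chromosome 19, 29251803 to 29313095) was at 52.1, 37.7 and 60.7 in LTHSC and 62.8, 45.2 and 35.8 in MKP, with overlapping ranges (-0.06, SE 0.35, adjusted p = 0.919). The counts do not separate the inserted from the endogenous allele. Of 36 pathway genes tested, 7 fell, 6 in all 3 MKP libraries, and 1 rose, with a median of -1.01. In the fit without MKP 5 and 6, 11 fell and 2 rose. Feedback inhibitors that STAT proteins induce were among those that fell: Socs3 stood at 23.0, 22.8 and 27.8 in LTHSC and 3.12, 2.89 and 3.93 in MKP (-2.88, SE 0.44, adjusted p = 0.0151). Cish stood at 122, 176 and 145 in LTHSC and 28.1, 14.1 and 50.1 in MKP (-2.26, SE 0.47, adjusted p = 0.0284). Both separated the populations without overlap. Socs5 (-1.36) and Socs2 (-1.35) fell, the latter outside the rule for all 3 libraries. Stat4 (-1.75) and the granulocyte colony-stimulating factor receptor Csf3r (-3.26) fell too. Stat5a, a main carrier of thrombopoietin signals, was at 109, 121 and 142 in LTHSC and 112, 120 and 59.1 in MKP and did not pass. Ptpn11, the phosphatase SHP2, rose from 78.6, 61.4 and 52.7 in LTHSC to 141, 270 and 264 in MKP (1.81, SE 0.39, adjusted p = 0.0299).

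Among 30 interferon response and MHC class I genes, 4 fell by edgeR, 3 of them in all 3 MKP libraries, and 0 rose, with 5 higher and 8 lower at an unadjusted p under 0.05, 5 higher and 9 lower by DESeq2, and 1 higher and 5 lower by limma voom. The list summed to 11130 to 12594 CPM in LTHSC and to 8484, 28558 and 42278 in MKP 4, 5 and 6. Irf1, a transcription factor gene of the response, fell outside that rule (-1.30, adjusted p = 0.0339). Gbp2, an interferon-induced GTPase gene, was at 157, 144 and 140 in LTHSC and 35.2, 35.8 and 16.3 in MKP (-2.34, SE 0.39, adjusted p = 0.0177). Of 24 genes for iron handling, 1 fell, the transferrin gene Trf, at 126, 162 and 177 in LTHSC and 54.9, 58.6 and 21.4 in MKP (-1.79, SE 0.43, adjusted p = 0.0346). With length offsets 1 iron gene rose and 3 fell. No heme synthesis gene of 14 was called by edgeR, with 4 higher and 3 lower at an unadjusted p under 0.05, 3 higher and 1 lower by DESeq2 and none by limma voom. With length offsets 4 heme synthesis genes were called higher and 0 lower. No cholesterol synthesis gene of 22 was called, with 1 higher and 3 lower unadjusted and none by DESeq2 or limma voom.

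Some groups rose in MKP 5 and MKP 6 but hardly in MKP 4. Of 82 cytosolic ribosomal protein genes 57 were called higher, but 2 of them in all 3 MKP libraries, Rpl39 and Rpl5. Their median difference from LTHSC was 0.505 in MKP 4, 4.2 in MKP 5 and 4.08 in MKP 6. With MKP 4 as the lone MKP library 1 of 82 was called, and with length offsets 21. Rps29 was at 75.2, 48.9 and 38.2 in LTHSC, 69.6 in MKP 4 and 2657 and 1588 in MKP 5 and 6, so MKP 4 lay within the LTHSC range. Of 74 nuclear genes of the respiratory chain 51 were called higher and 2 in all 3, Cox5a and Cox6a2, with medians of 0.455, 4.46 and 4.58. With MKP 4 as the lone MKP library 2 of 75 were called, and with length offsets 25 of 74. Uqcr11, a subunit of complex III, was at 137, 118 and 96.4 in LTHSC, 154 in MKP 4 and 8237 and 5241 in MKP 5 and 6. Cox5a, an exception, stood at 85.6, 70.3 and 69.3 in LTHSC and at 164, 1735 and 3105 in MKP, above LTHSC in each library. The median deposited length was 706 bases for the ribosomal and 708 bases for the respiratory genes tested, against 2822 bases for all genes tested.

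Further genes were called through MKP 5 and MKP 6. Atp5k, an ATP synthase subunit gene, was at 39.4, 28.1 and 27.4 in LTHSC and 50.9, 3644 and 1849 in MKP. Cd52, a lymphoid and myeloid surface antigen, was at 6.98, 11.4 and 3.50 in LTHSC and 5.99, 443 and 326 in MKP. Smim27, a small membrane protein gene, was at 15.7 to 22.2 in LTHSC and 11.7, 865 and 432 in MKP. MKP 4 lay above the LTHSC range for Atp5k, within it for Cd52 and below it for Smim27, while MKP 5 and MKP 6 lay far above it for each.

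Histone genes of the Hist clusters, a group chosen after values were seen, rose in a different way. Of 56 tested, 43 were called higher, 39 of them in all 3 MKP libraries, with medians of 1.41 in MKP 4, 5.64 in MKP 5 and 5.06 in MKP 6. The linker histone gene Hist1h1b stood at 2.19, 1.75 and 1.43 in LTHSC and 9.63, 250 and 129 in MKP (6.17, SE 1.06, adjusted p = 0.0193). Every MKP library was higher, and MKP 4 was closest to LTHSC. Many of these genes are near-identical copies whose reads the counting could split, so single members are uncertain. The nuclear RNA Malat1 was at 3022, 3806 and 2747 in LTHSC and 1226, 18161 and 8602 in MKP, with MKP 4 below and the other MKP libraries above every LTHSC library.

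Markers of other blood cells were measured to see what else the sorted cells held. The 18 neutrophil and monocyte markers summed to 1206 to 3242 CPM in LTHSC and to 2311, 5731 and 7491 in MKP 4, 5 and 6. Of these 5 rose and 2 fell, in all 3 MKP libraries. Mpo, the granule peroxidase of early myeloid cells, was at 68.0, 330 and 168 in LTHSC and 1501, 1384 and 1313 in MKP (2.89, SE 0.75, adjusted p = 0.0386). Elane, Ctsg, Ms4a3 and Ly6c2, also expressed in early myeloid cells, rose by 4.35, 5.30, 5.40 and 3.56. The late granule genes Ltf (-4.56) and Ngp (-2.98) fell. The list's median log2 fold change was 1.15, and its median difference from LTHSC was -0.82 in MKP 4, 0.805 in MKP 5 and 1.31 in MKP 6. The median log2 fold change was -1.01 with MKP 4 as the lone MKP library. It was -0.801 with length offsets, where 4 rose and 6 fell. The 14 mast, basophil and eosinophil markers summed to 9.65 to 34.2 CPM in LTHSC and 279, 1056 and 1005 in MKP, and Tpsb2, Tpsab1 and Mcpt4 had no count in any library. Of 10 tested 6 rose in all 3 MKP libraries: Cpa3, a mast cell protease, was at 3.73, 4.31 and 3.59 in LTHSC and 40.7, 132 and 50.1 in MKP (4.25, SE 0.54, adjusted p = 0.00899). The IgE receptor chain Fcer1a stood at 0.887, 2.20 and 0 in LTHSC and 36.4, 311 and 342 in MKP (7.78, SE 1.37, adjusted p = 0.0196). The list's median was 5.47, or 5.41 with the 2 genes without LTHSC counts, Gzmb and Cma1, at their bounds. With MKP 4 as the lone MKP library 2 of 11 rose.

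Among lymphoid markers, the 12 T and NK genes summed to 74.1 to 85.3 CPM in LTHSC and 267, 4586 and 6290 in MKP, with Cd3e, Cd3g and Cd8a without a count in any library. Nkg7, a cytotoxic granule gene, made up most of the MKP sum at 254, 4570 and 6260 against 41.6, 45.9 and 50.2 in LTHSC (6.33, SE 1.31, adjusted p = 0.0275), and Klrb1c fell. The 14 B-lymphoid markers summed to 61.3 to 67.3 in LTHSC and 52.8, 120 and 158 in MKP, with Pax5 and Ms4a1 at 0 throughout and 0 of 4 tested called (2 higher at an unadjusted p under 0.05, 2 by DESeq2, 0 by limma voom). The 12 macrophage markers summed to 57.7 to 64.9 in LTHSC and 16.6, 13.2 and 44.0 in MKP, with Adgre1, Marco and Timd4 at 0 throughout, and Axl fell. The 14 stroma and endothelium markers summed to 15.1 to 37.4 in LTHSC and 29.6, 70.3 and 18.1 in MKP, with Col3a1, Dcn, Pdgfra, Adipoq and Lum at 0. Cldn5 of that list had no MKP count, at least 59.5-fold lower against the floor. The part of the myeloid, mast and Nkg7 signals in the platelet and cell-cycle differences was not tested.

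Outside the lists, the largest rises among genes changed in all 3 MKP libraries were partly platelet and mast genes (Pf4 and Fcer1a, above) and histones. Lim2 had no count in LTHSC and was at least 301-fold higher in MKP, where it stood at 2.94, 33.0 and 43.3 CPM. Kcnj5, a subunit of an inward-rectifier potassium channel, stood at 59.5, 16.4 and 16.0 CPM in MKP and had 1 count in LTHSC (a ratio of 2687, 95% interval 482 to 106183 for counting error). Ccdc180 had 2 counts in LTHSC and stood at 5.75, 206 and 114 in MKP (a ratio of 1534, interval 424 to 12672). Kcnj5 was highest in MKP 4, whereas Lim2 and Ccdc180 were lowest there. The muscle LIM protein gene Csrp3 rose by 8.87, the lectin receptor Clec4d by 6.83 and metallothionein Mt1 by 6.76. Mt1 was at 60.6 in MKP 4, 1645 in MKP 5 and 1505 in MKP 6, against 8.91 to 11.5 in LTHSC.

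The largest falls in all 3 MKP libraries ended at low CPM in MKP, where log2 differences rest on few counts. Their sizes were even between libraries for some genes only. Efna1, an ephrin ligand, was at 34.0, 36.9 and 33.1 in LTHSC and 0.391, 0 and 0.0786 in MKP (-7.24, SE 0.76, adjusted p = 0.00513). Every MKP library was near 0. The ferlin gene Myof had 1590 counts in LTHSC and 1 in MKP (a ratio of 1533, interval 275 to 60589). The heparan sulfate proteoglycan gene Sdc4 (-7.28), pantetheinase Vnn1 (-6.63), Tinagl1 (-6.15), the acetylcholine receptor subunit Chrnb1 (-6.02) and muscle glycogen phosphorylase Pygm (-5.93) also fell. Tinagl1 differed from LTHSC by -6.07, -5.76 and -5.78 log2 units in MKP 4, 5 and 6. For Sdc4 these values were -7.58, -5.05 and -7.09, and for Pygm -5.44, -4.72 and -8.63.

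The same step was then compared with the other lines by a test of the difference in change, fitted on 12 libraries for each pair of lines. Between KI and VF, 2 of 14278 genes were called (0.014%), both with a larger fall in KI, while 2592 had an unadjusted p under 0.05 and DESeq2 called 1072. Egr1 changed by -4.97 in KI and -0.69 in VF, a difference of -4.29 (SE 0.50, adjusted p = 0.0164 by edgeR). In that fit Egr1 was at 2399, 1539 and 2138 CPM in KI LTHSC and 73.8, 66.6 and 53.3 in KI MKP, and at 65.0, 42.0 and 41.4 in VF LTHSC and 42.8, 22.6 and 26.9 in VF MKP. The lines thus stood apart in LTHSC, where KI was far above VF, much more than in MKP. Ppp1r15a changed by -3.93 in KI and -0.48 in VF (difference -3.45, SE 0.44, adjusted p = 0.0204), standing at 848, 740 and 960 in KI LTHSC against 118, 83.8 and 98.4 in VF LTHSC. In MKP its levels were 80.9, 49.8 and 36.4 in KI and 81.1, 69.1 and 65.3 in VF, which overlapped. Fos had a difference of -4.86 but did not pass (adjusted p = 0.158). Between KI and E12, 0 of 14262 genes were called (0%), with 2695 at an unadjusted p under 0.05 and 1414 called by DESeq2. The count was also 0 without the E12 LTHSC library numbered 4, described below, with 2072 unadjusted. Egr1 there had a difference of -2.13 (adjusted p = 0.118) and Ppp1r15a one of -2.98 (adjusted p = 0.0822). The Egr1 call against VF was lost without TMM scaling (adjusted p = 0.101) and when any of 8 single libraries was left out, LTHSC KI 1 or 3, MKP KI 5, any LTHSC VF library, or MKP VF 1 or 3 (adjusted p = 0.0592 to 0.188). That of Ppp1r15a was lost without TMM scaling and when any of the 12 except MKP KI 4 or 6 was left out (adjusted p = 0.0575 to 0.307 over these settings).

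**Figure D5:**
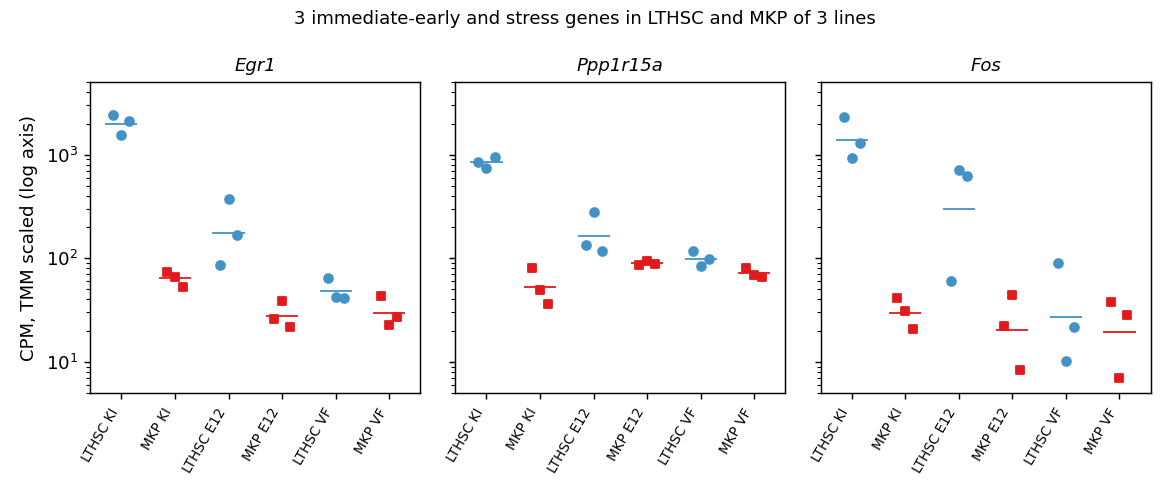
CPM on a log axis (y) of Egr1, Ppp1r15a and Fos in each LTHSC (blue circles) and MKP (red squares) library of the KI, E12 and VF lines (x), with a bar at the geometric mean of each 3. KI and VF are scaled in 1 fit and E12 in the fit with KI, and the KI LTHSC libraries lie above all others for each gene.

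Each line's own comparison was set beside that of KI, with no library in common. In E12 the LTHSC library numbered 4 stood apart: its Spearman correlation with the other LTHSC libraries was 0.862 and 0.88, against 0.953 between these, and Ctsg was at 2711 CPM there against 14.0 and 11.3 (scaled with KI). E12 values are therefore also given without it. In VF, 2636 of 13677 genes were called higher (19.3%) and 2902 lower (21.2%), and in E12 125 of 13429 (0.931%) and 423 (3.15%). Without its LTHSC library 4, E12 had 1262 of 13867 called higher (9.1%) and 1552 lower (11.2%). Of the 421 genes higher in all 3 KI MKP libraries, 412 were tested in VF and 352 of these were called higher there (85.4%), which is 13.4% of the VF calls. In E12 45 of 419 were (10.7%), or 36% of its calls, and without that library 243 of 420 (57.9%, or 19.3% of its calls). For the 764 KI genes that were higher but not in all 3 libraries, 535 were called higher in VF (70%) and 6 in E12 (0.785%), or 235 without that library (30.8%). Their median change was 0.612 in VF and -0.0522 in E12, or 0.527 without that library. Of the 657 genes lower in all 3 KI MKP libraries, 578 of 636 were called lower in VF (90.9%, or 19.9% of its calls) and 200 of 588 in E12 (34%, or 47.3%), or 457 of 615 without that library (74.3%, or 29.4%). The median change of these lower genes was -2.18 in VF and -2.01 in E12, and -2.28 in E12 without that library. For the genes higher in all 3 it was 1.14 in VF, 0.542 in E12 and 1.28 in E12 without that library.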

How the data were processed

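RNA of 24 sorted mouse bone marrow samples was sequenced, and the 6 of the knock-in line are described here. The authors deposited raw read counts per gene with a gene length, and per the submitters' processing notes STAR 2.7.0c, featureCounts of Subread 1.6.4 and build mm10 were used. The annotation, the use of strand and the treatment of reads that map more than once are not given in the sources used here. The 16 rows without a symbol (at most 0.0132% of counts) were left out.

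Counts were filtered with filterByExpr, scaled by TMM and tested with edgeR 4.0.16 (robust quasi-likelihood test, Benjamini-Hochberg threshold 0.05) in R 4.3.3, with the 6 libraries only. A standard error is the size of the log2 fold change divided by the square root of F. Log2 CPM values have a prior count of 2. Changes of lines were compared by an interaction term over 12 libraries. Scripts were tested on simulated counts. DESeq2 1.42.0, limma 3.58.1 (voom), other scalings, a 2-fold test, all 24 libraries, libraries left out and, chosen after seeing the data, offsets for gene length and the E12 comparison without 1 LTHSC library were alternatives. Members and gene lists were chosen with earlier results of these data known.

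Genes named are the 12 of largest change each way among those changed in all 3 MKP libraries and averaging 20 CPM or more where higher, up to 6 called members each way of each list with at least 10 CPM, members with a defining role, and, where MKP 5 and 6 lay apart from MKP 4, 6 called genes and 8 each way without a test (at least 50 CPM). Predicted and sex-linked genes were left out of the first set. Further called list members are named with their fold change only, and some genes that the rule names are not reported here. Of 24454 genes, 24374 matched RefSeq by ID. Intervals and floors (3 counts) cover counting error only, as reads without molecular identifiers are not independent molecules. Same-numbered libraries were not taken as pairs.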

Additional observations from a re-analysis of the deposited data

Results flagged for a closer look

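Results are given here because the change from LTHSC to MKP differed between the KI and VF lines by a test of the difference itself. For Egr1 the difference of log2 changes was -4.29 (SE 0.50, adjusted p = 0.0164 by edgeR over 14278 genes), from changes of -4.97 in KI and -0.69 in VF. All 3 KI LTHSC libraries, at 1539 to 2399 CPM, lay above all 3 VF LTHSC libraries, at 41.4 to 65.0 CPM. For Ppp1r15a the difference was -3.45 (SE 0.44, adjusted p = 0.0204), from changes of -3.93 in KI and -0.48 in VF, with KI LTHSC at 740 to 960 CPM and VF LTHSC at 83.8 to 118 CPM. The lines differ in Cre driver as well as in allele, so these cannot be told apart.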

How the results depend on the processing

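Against 1185 genes higher and 719 lower in MKP, the counts were 1240 and 722 with RLE scaling, 1373 and 719 with no filter on low counts, 885 and 826 with limma voom, 1403 and 890 with length offsets, 2251 and 1428 with DESeq2, 2665 and 1848 with all 24 libraries, 128 and 160 in a test against a 2-fold change, 66 and 226 without TMM scaling, and 573 and 838 without MKP 5 and 6. Leaving out 1 library at a time gave 0 to 3100 higher and 14 to 3286 lower. Genes changed in all 3 MKP libraries, 421 and 657, became 535 and 1008 with DESeq2 and 601 and 1023 with all 24 libraries. They became 128 and 160 in the 2-fold test and 66 and 226 without TMM scaling. With 1 library left out, the rule covered only the libraries that remained, and the counts were 0 to 2426 and 14 to 2536. The highest, 2426 and 2536, came without MKP 4 and so count genes changed in MKP 5 and MKP 6 only. Of the 1078, 1071 were kept with RLE scaling, 1077 with DESeq2, 940 with limma voom, 975 with length offsets and 284 without TMM scaling. Without LTHSC 1, 2 or 3 in turn, 20, 17 and 14 were kept. Without MKP 5 or MKP 6, 142 and 126 were kept, and without MKP 4, 1076. Of 153 genes followed singly, 139, 138 and 141 kept their direction but lost their call without LTHSC 1, 2 or 3. The share of higher genes among calls was 62.2%, and 22.6% without TMM scaling, 51.7% with limma voom and 44.4% in the 2-fold test. The causes of these shifts were not tested. The fit of all 24 libraries takes 6 columns named MEP as the pre-MegE libraries of their genotype, a match the names do not settle.

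For KI against VF, 2 genes became 0 without TMM scaling, 1072 with DESeq2, 13 without MKP 5 and 6 and 0 to 5254 with 1 library left out. For KI against E12, 0 became 1414 with DESeq2, 5 with all 24 libraries and 0 to 3954 with 1 library left out. Without MKP 5 and 6 the log2 fold change reversed for Smim27 (-0.59), Cd52 (-0.26), Dpm3 (-0.07), Malat1 (-1.36) and Jak2 (0.35). Jak2, which was not called, also stood at -0.32 without MKP 4, 0.09 without LTHSC 3, 0.11 without MKP 6 and 0.28 with length offsets.

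No paired analysis was possible because no replicate number recurs between MKP and LTHSC of KI, or between MKP of KI and the VF groups. Against E12, numbers 2, 4 and 5 recur, the correlations of deviations of same-numbered libraries were -0.373 to 0.0641, and with the replicate block 0 genes were called (125 at an unadjusted p under 0.05, with 2 residual degrees of freedom). Depth limits genes with few counts in a population, for which bounds or counting intervals are given. Composition, which differed between MKP 4 and the other MKP libraries, sets how far levels in MKP can be read.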

Other observations

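Genes in which MKP 5 and MKP 6 both lay farthest from MKP 4 are given as values, without a test. Besides histone genes, Wfdc17, a secreted protease-inhibitor-type gene of myeloid cells, was at 1.20 CPM in MKP 4 and at 88.3 and 66.0 in MKP 5 and 6. In the other direction, Echdc2, a gene of mitochondrial fatty acid metabolism, was at 155 CPM in MKP 4, 5.30 in MKP 5 and 1.65 in MKP 6, against 178 to 235 in LTHSC. The thrombin receptor gene F2r was at 587 CPM in MKP 4, 83.6 in MKP 5 and 71.6 in MKP 6. Tmem123, a membrane protein gene, was at 480, 40.1 and 81.1 CPM in the same order, and Mfsd14a at 149, 12.4 and 15.3. For Echdc2 the library that lay nearest to LTHSC was MKP 4.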
